A study of Mus musculus with 14 samples.

Results

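The genes described here carry dietary fat across the enterocyte, from uptake of fatty acids to secretion of the chylomicron. The list names 35 genes, and 33 of them were tested among the 18010 genes of the comparison. Acsl3 and Cideb were left out, because the probe set of each is shared with another gene (Utp14b and Nop9). A gene was represented by the probe set with the highest mean among those annotated to it alone. The rule that picks the members uses function and no measured value, but the list was drawn up with earlier results of these data known.

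Jejunal RNA was hybridised to Affymetrix arrays from 14 mice, 7 labelled LRH-1 WT (WT) and 7 labelled LRH-1 K289R (K289R), with 1 array per mouse. All mice were 19 to 21 weeks old, ate freely and were killed at 7 am. LRH-1 is the nuclear receptor encoded by Nr5a2, and in K289R an arginine replaces a lysine that can carry the small modifier SUMO, and the comparison sets jejunal expression in such mice against that in WT. The sources used here do not give strain, sex, litter or zygosity. Nr5a2 was at 10.32 ± 0.18 (SD, n = 7) in WT mice, against 10.18 ± 0.19 (SD, n = 7) in K289R mice, and a point mutation need not alter that level, so it does not check the labels.

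Enterocytes take up fatty acids and monoacylglycerol from digested fat, bind them to small cytosolic proteins, activate the acids to acyl-CoA and rebuild triglyceride at the endoplasmic reticulum. The triglyceride is either held in cytosolic droplets or loaded by the microsomal transfer protein onto apolipoprotein B. The particle leaves the reticulum in large COPII carriers, gains further apolipoproteins and enters the lymph. These genes are most active in the proximal and middle small intestine, and several fall towards the ileum, where bile acid uptake takes over.

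The upstream sequences of 5 genes are shown because they set a pair of genes whose levels varied widely between mice (Fabp1 and Slc27a2) and one that varied with them (Apoa4) beside their steadiest relatives (Fabp2 and Apoa1). Each is the 250 bases before the transcription start, 5′ to 3′, from RefSeq on build GRCm38.p6, all on the plus strand. The windows are chr6:71199629-71199878 for Fabp1, chr2:126552774-126553023 for Slc27a2, chr9:46240594-46240843 for Apoa4, chr3:122894822-122895071 for Fabp2 and chr9:46228380-46228629 for Apoa1. Capitals mark matches, on either strand, to CAAGGNCA (the type of site bound by LRH-1), to a direct repeat of AGGNCA with 1 base between the copies (the type bound by HNF4 and PPAR receptors) or to TATAAA.
Fabp1: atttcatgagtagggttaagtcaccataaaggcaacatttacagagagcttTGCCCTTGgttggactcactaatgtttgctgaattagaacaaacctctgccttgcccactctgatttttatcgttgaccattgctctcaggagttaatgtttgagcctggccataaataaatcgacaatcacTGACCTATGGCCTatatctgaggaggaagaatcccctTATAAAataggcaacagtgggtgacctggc
Slc27a2: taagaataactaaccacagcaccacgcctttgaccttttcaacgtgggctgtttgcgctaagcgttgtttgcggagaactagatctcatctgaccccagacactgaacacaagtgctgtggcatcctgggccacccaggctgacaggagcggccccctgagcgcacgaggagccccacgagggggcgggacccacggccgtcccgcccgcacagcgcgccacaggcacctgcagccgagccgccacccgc
Apoa4: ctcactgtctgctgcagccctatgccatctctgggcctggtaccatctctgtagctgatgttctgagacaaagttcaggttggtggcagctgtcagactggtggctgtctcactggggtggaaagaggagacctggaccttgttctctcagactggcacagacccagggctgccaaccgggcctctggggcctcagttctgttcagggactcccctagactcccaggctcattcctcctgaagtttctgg
Fabp2: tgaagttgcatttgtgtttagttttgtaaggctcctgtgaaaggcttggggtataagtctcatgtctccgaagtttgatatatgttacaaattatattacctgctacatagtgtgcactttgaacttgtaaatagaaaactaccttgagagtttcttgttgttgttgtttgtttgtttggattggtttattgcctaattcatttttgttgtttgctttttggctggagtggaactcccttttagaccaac
Apoa1: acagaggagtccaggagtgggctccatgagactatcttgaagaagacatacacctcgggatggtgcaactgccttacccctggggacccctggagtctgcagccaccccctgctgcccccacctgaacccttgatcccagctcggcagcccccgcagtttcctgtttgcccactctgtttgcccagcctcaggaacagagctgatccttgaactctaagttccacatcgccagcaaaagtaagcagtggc
Of these 5 windows, that of Fabp1 held a match, with all 3 motifs in it. Its CAAGGNCA match reads TGCCCTTG on the plus strand, at bases -199 to -192 from the start, and its direct repeat reads TGACCTATGGCCT at bases -67 to -55. Windows were found for 30 of the 35 listed genes, 40 windows in all. CAAGGNCA was in 3 of the 40 windows (7.5%), those of Fabp1, Lpin3 and Sar1b, and in 5.53% of the 32851 windows in the table. The direct repeat was in 2 of the 40, those of Fabp1 and Apoc2, against 0.338% of all windows, and TATAAA in 6 of the 40 (15.0%), against 12.4%. A CAAGGNCA match can share its AGGNCA with a direct repeat, which did not occur in the Fabp1 window. A match describes the letters and does not show binding.

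Between the genotypes, 0 of the 33 genes passed the threshold (limma, adjusted p under 0.05), where 0.0444% of all genes tested did (8 of 18010). At an unadjusted p under 0.05 the count was also 0 of 33, against 8.48% of all genes (4.43% higher and 4.05% lower in K289R). In K289R 15 of the 33 were higher and 18 lower, where 48% and 52% of all genes were, and the median difference, K289R minus WT on the log2 scale, was −0.0058 against −0.0039 over all genes. The genotypes overlapped for each of the 33 genes, and 0.167% of all genes showed no overlap. The lowest adjusted p was 0.604, for Mogat2.

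The intervals give the size of change that the 14 arrays leave possible. The 95% interval of the difference lay within a 1.3-fold change either way for 28 of the 33 genes, against 92.1% of all genes. It lay within a 1.5-fold change for 32, against 98.4% of all genes, and within a 2-fold change for all 33, against 99.7%. The gene outside 1.5-fold was Fabp1, with an interval from −0.69 to 0.35.

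**Figure D1:**
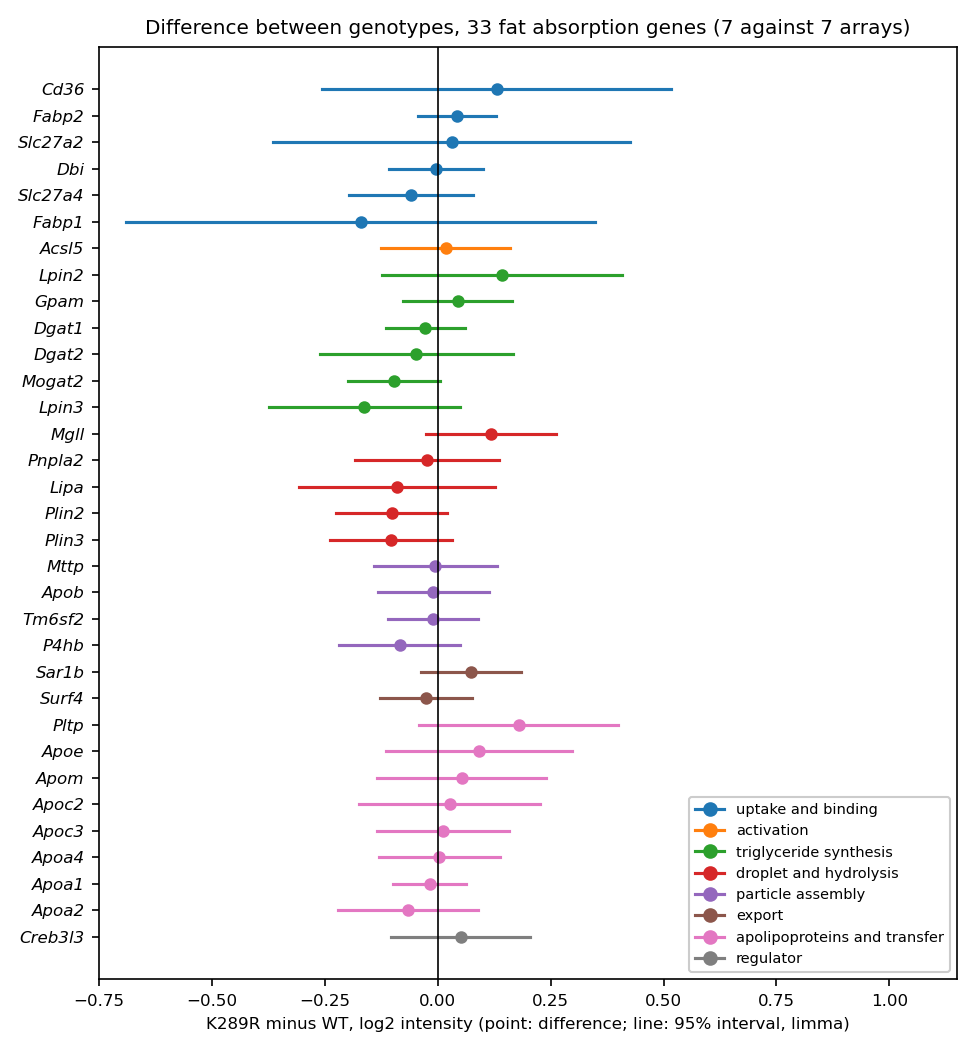
Difference between K289R and WT (log2 intensity, x axis) for the 33 tested genes grouped by role (y axis), with points for the difference and lines for limma's 95% interval, 7 against 7 arrays. Every interval includes 0, and those of Fabp1, Slc27a2 and Cd36 are the widest.

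Uptake and binding genes had the widest spread. Fabp1, the liver-type fatty acid binding protein that is also abundant in enterocytes, had a lowest, median and highest log2 intensity of 11.36, 12.61 and 13.08 in WT and of 11.63, 12.41 and 12.94 in K289R. The genotypes overlapped over nearly their whole range. The difference was −0.17 (SE 0.246, limma adjusted p = 0.858). It depended on single arrays, from −0.37 (SE 0.195) without WT replicate 1 to −0.049 (SE 0.240) without K289R replicate 7. Cd36, a fatty acid transporter of the apical membrane, ran from 9.58 through a median of 10.43 to 10.78 in WT and from 10.16 through 10.62 to 11.27 in K289R. Its highest array was K289R replicate 5 and its lowest WT replicate 1. The difference of 0.13 (SE 0.183) was smaller than the SD of 0.40 (n = 7) in each genotype. Without WT replicate 1 it was −0.0053 (SE 0.153), and without K289R replicate 5 it was 0.0078 (SE 0.162). Slc27a2, an acyl-CoA synthetase of the fatty acid transport protein family, spanned 9.62 to 10.89 in WT, against 9.95 to 11.02 in K289R, and differed by 0.03 (SE 0.187), with −0.11 to 0.12 when 1 array was left out. A dimmer second probe set of Slc27a2 was at 7.14 ± 0.10 (SD, n = 7) and 7.13 ± 0.02 (SD, n = 7). Slc27a4, the main transport protein of that family in enterocytes, was at 12.51 ± 0.14 (SD, n = 7) and 12.45 ± 0.10 (SD, n = 7). Fabp2, the intestinal fatty acid binding protein, was steady, at 13.56 ± 0.05 (SD, n = 7) and 13.60 ± 0.04 (SD, n = 7). Dbi, the acyl-CoA binding protein, was at 9.23 in both genotypes, with a difference of −0.0037 (SE 0.049). Acsl5, which activates long-chain fatty acids, spanned 12.76 to 13.12 in WT, against 12.76 to 13.13 in K289R, with a difference of 0.02 (SE 0.068).

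Triglyceride synthesis genes differed by at most 0.16 in either direction. Mogat2, which starts the monoacylglycerol pathway that makes most chylomicron triglyceride, had a lowest, median and highest level of 11.83, 11.91 and 12.00 in WT and of 11.62, 11.85 and 11.88 in K289R. All 7 K289R arrays were below the WT mean, yet the ranges overlapped. The difference was −0.097 (SE 0.048, 95% interval −0.20 to 0.0052, limma adjusted p = 0.604). Lpin3, a phosphatidate phosphatase gene, went from 9.49 through 9.78 to 10.08 in WT and from 9.41 through 9.61 to 10.001 in K289R. Its difference was −0.16 (SE 0.101), and 1 K289R array was above the WT mean. Lpin2, of the same family, went from 9.91 through 10.36 to 10.56 in WT and from 10.08 through 10.37 to 11.07 in K289R, a difference of 0.14 (SE 0.126). The highest K289R value, again on replicate 5, was followed by 10.54. A second, dimmer Lpin2 probe set differed by 0.39, from 8.73 ± 0.30 (SD, n = 7) to 9.11 ± 0.59 (SD, n = 7). Dgat1 and Dgat2 add the last acyl chain. Dgat1 was at 13.05 ± 0.04 (SD, n = 7) and 13.02 ± 0.06 (SD, n = 7), and Dgat2 at 11.83 ± 0.22 (SD, n = 7) and 11.78 ± 0.20 (SD, n = 7). Gpam, the mitochondrial enzyme that starts the glycerol phosphate route, differed by 0.04 (SE 0.057).

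Of the 5 genes of droplets and lipid hydrolysis 4 were lower in K289R and 1 higher, and 0 passed. Plin3, a droplet coat protein gene, had a lowest, median and highest level of 11.65, 11.80 and 11.88 in WT and of 11.54, 11.65 and 11.99 in K289R. On 6 of 7 K289R arrays it was below the WT mean, whereas K289R replicate 5 was the highest of all 14. The difference was −0.10 (SE 0.064), and without K289R replicate 5 it was −0.15 (SE 0.050, unadjusted p = 0.0070, limma adjusted p = 0.297). Plin2, the droplet coat protein that follows cellular triglyceride, was at 10.42 ± 0.12 (SD, n = 7) and 10.31 ± 0.08 (SD, n = 7), with a difference of −0.10 (SE 0.058). Mgll, which cleaves monoacylglycerol, ran from 7.97 through 8.30 to 8.35 in WT and from 8.17 through 8.31 to 8.50 in K289R. Of the K289R arrays 6 of 7 exceeded the WT mean, and the difference was 0.12 (SE 0.068). The lysosomal acid lipase gene Lipa differed by −0.090 (SE 0.103) and the droplet triglyceride lipase gene Pnpla2 by −0.024 (SE 0.076).

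The genes that build and export the particle lay close together in the 2 genotypes. Apob, the structural protein of the chylomicron, was at 13.52 ± 0.11 (SD, n = 7) in WT mice, against 13.51 ± 0.10 (SD, n = 7) in K289R mice. Mttp, the lipid transfer subunit that loads it, was at 12.94 ± 0.10 (SD, n = 7) and 12.94 ± 0.14 (SD, n = 7), a difference of −0.0058 (SE 0.065). P4hb, protein disulfide isomerase and the partner subunit of Mttp, had a lowest, median and highest level of 12.63, 12.74 and 12.95 in WT and of 12.55, 12.64 and 12.87 in K289R. Its difference of −0.084 (SE 0.063) was within the spread between mice. Tm6sf2, which helps to lipidate the particle, differed by −0.010 (SE 0.047). Sar1b, the GTPase that forms the COPII coat and is needed for chylomicron export, went from 12.29 through 12.36 to 12.42 in WT and from 12.32 through 12.42 to 12.65 in K289R, a difference of 0.07 (SE 0.053). Surf4, the cargo receptor for lipoproteins, went from 12.34 through 12.49 to 12.62 and from 12.39 through 12.47 to 12.56, a difference of −0.027 (SE 0.048). Creb3l3, a transcription factor that acts on apolipoprotein genes, ran from 11.51 through 11.72 to 11.74 in WT and from 11.46 through 11.74 to 11.96 in K289R, with a difference of 0.05 (SE 0.073).

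Apolipoprotein genes also overlapped. Apoa1, the main protein of high density lipoprotein, had the smallest spread of the 33 genes, with a lowest, median and highest level of 13.35, 13.38 and 13.42 in WT and of 13.31, 13.36 and 13.45 in K289R. Apoa4, which is secreted with chylomicrons, was at 13.94 ± 0.15 (SD, n = 7) and 13.94 ± 0.07 (SD, n = 7). Such levels lie near the top of the scale of the table, whose highest value is 20050.3, and saturation was not tested. Apoc3, an inhibitor of triglyceride clearance, was at 10.08 ± 0.15 (SD, n = 7) and 10.09 ± 0.12 (SD, n = 7), and Apoc2, the activator of lipoprotein lipase, at 10.34 ± 0.20 (SD, n = 7) and 10.37 ± 0.19 (SD, n = 7). Apoa2 ran from 7.76 through 8.12 to 8.26 in WT and from 7.84 through 8.09 to 8.16 in K289R, a difference of −0.066 (SE 0.074). Apom, which carries sphingosine 1-phosphate, differed by 0.05 (SE 0.089). Apoe, a ligand for remnant uptake, differed by 0.09 (SE 0.097). Pltp, the phospholipid transfer protein, had the largest positive difference, with levels from 8.26 through 8.39 to 8.81 in WT and from 8.26 through 8.67 to 8.86 in K289R. The difference of 0.18 (SE 0.105, limma adjusted p = 0.645) did not pass.

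The mice of a genotype differed from each other far more in some of these genes than in others. The SD within genotypes was 0.539 for Fabp1, 0.408 for Slc27a2 and 0.398 for Cd36, above 98.7% or more of the genes tested. At the other end it was 0.036 for Apoa1, 0.047 for Fabp2 and 0.050 for Dgat1, each within the lowest 1% of genes. The median over the 33 genes was 0.129, near the 0.127 over all genes. From the lowest to the highest of the 14 arrays the level spanned 3.29-fold for Fabp1, 3.21-fold for Cd36 and 2.64-fold for Slc27a2, and 1.11-fold for Apoa1. WT replicate 1 was the lowest array for 9 genes, K289R replicate 7 for 7 and K289R replicate 3 for 6. K289R replicate 5 was the highest for 11 and WT replicate 3 for 6. The share over all genes tested was not computed, so these counts cannot be read as a trait of these genes.

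**Figure D2:**
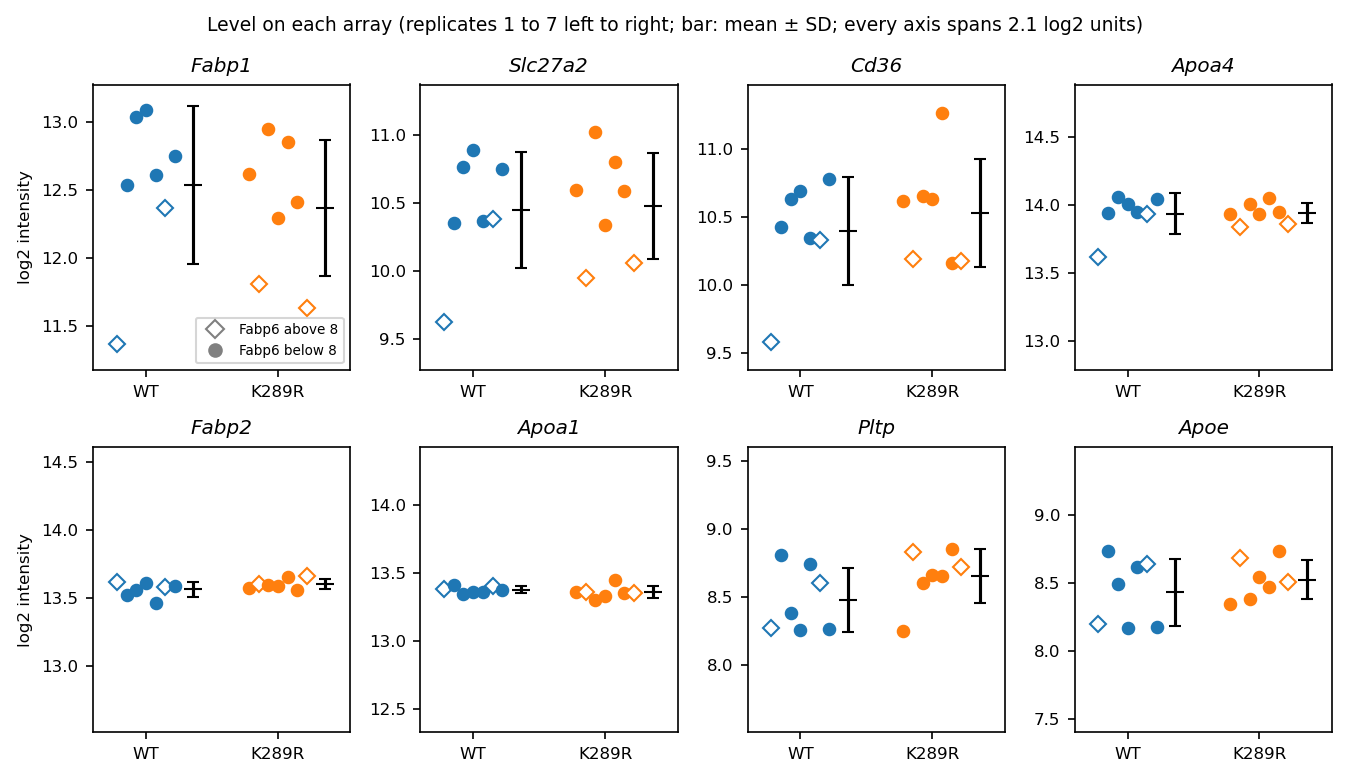
Log2 intensity (y axis) of 8 genes on each array by genotype (x axis), with the mean ± SD (n = 7) beside each group. Open diamonds are the 4 arrays with a Fabp6 level above 8; 3 of them are the lowest for Fabp1 and Slc27a2, whereas Fabp2 and Apoa1 are flat.

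The lowest Fabp1 arrays were among those that carried ileal transcripts. Fabp6, the ileal bile acid binding protein, was at 12.52 on WT replicate 1, 10.71 on K289R replicate 2, 9.91 on K289R replicate 7 and 9.18 on WT replicate 6, and at 6.63 or lower on the other 10. On the same 4 arrays, in that order, Fabp1 was at 11.36, 11.80, 11.63 and 12.36, and on the other 10 at 12.29 or higher. Slc27a2 was at 9.62, 9.95, 10.05 and 10.38 on them, and the ileal bile acid transporter gene Slc10a2 at 10.52, 8.03, 7.12 and 7.20. The enterocyte gene Sis was at 13.66, 13.61, 13.53 and 13.59. The arrays fall into separate groups by Fabp6, so no correlation with it was computed. Without these 4 arrays, an alternative added with the values in view, the SD within genotypes was 0.263 for Fabp1, 0.252 for Slc27a2, 0.306 for Cd36 and 0.052 for Apoa4 (0.118 with all arrays). The arrays left out include the lowest of Fabp1 and Slc27a2, so part of that fall is built in. Some SDs rose, among them Lpin2 (0.268 to 0.299) and Pltp (0.219 to 0.242). The median SD went from 0.129 to 0.123 over the 33 genes and from 0.127 to 0.123 over all genes tested. The difference of Fabp1 between genotypes was then −0.18 (SE 0.139). In that fit 0 of the 33 genes had an unadjusted p under 0.05 or passed the threshold (limma, lowest adjusted p = 0.704). Of all 18010 genes tested, 6.94% had an unadjusted p under 0.05 and 5 genes passed.

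**Figure D3:**
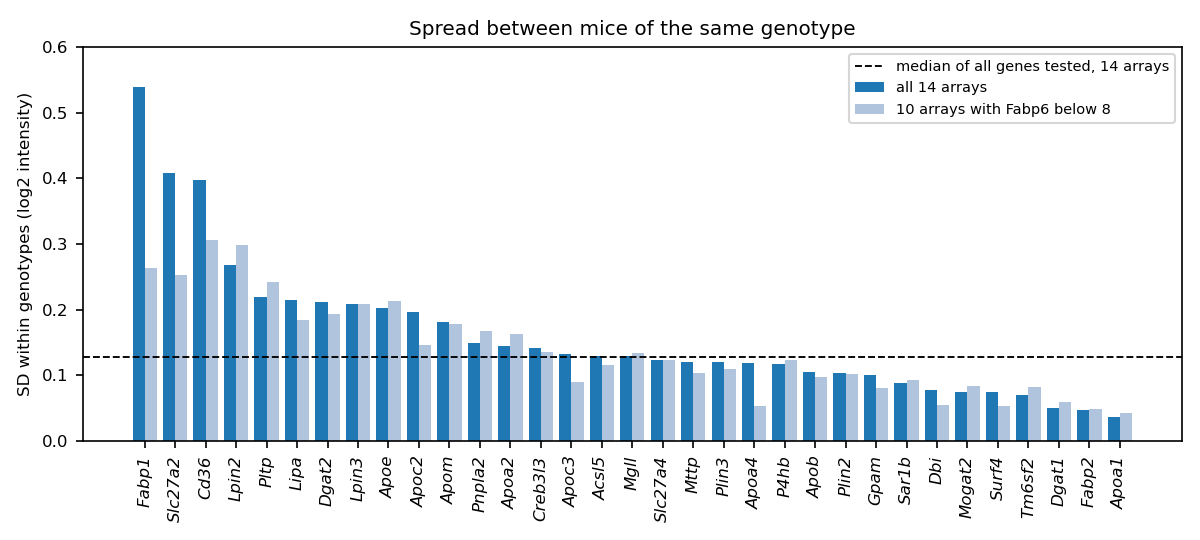
SD within genotypes in log2 intensity (y axis) of the 33 genes (x axis), over all 14 arrays (dark bars) and over the 10 arrays with Fabp6 below 8 (light bars), with a dashed line at the median of all genes tested, 0.127. Fabp1 goes from 0.539 to 0.263 and Slc27a2 from 0.408 to 0.252, whereas Lpin2 goes from 0.268 to 0.299 and Pltp from 0.219 to 0.242.

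Many of the genes moved together from mouse to mouse, as deviations from their genotype mean. Of the 528 pairs of the 33 genes 79 had an adjusted p under 0.05 (Pearson's r, 100000 permutations within genotypes, 2-sided, Benjamini-Hochberg over 528 pairs), 77 of them with a positive r. An r of 0.7 or more was reached by 14.4% of these pairs and by 1.66% of all pairs of tested genes. All genes of an array share its RNA and its scaling, so pairs are not independent. The count includes Apoe with Pltp, whose arrays form clusters as described further on. Fabp1 and Slc27a2 had the highest r, 0.970 (Spearman's rho 0.952, permutation p = 1e-05, the smallest these permutations give, adjusted p = 0.00132). It was 0.973 within WT, 0.967 within K289R, 0.956 without the 2 arrays farthest from the median of Fabp1 and 0.930 over the 10 arrays with low Fabp6. Next came Acsl5 and Mttp with an r of 0.964 (rho 0.947, permutation p = 1e-05, adjusted p = 0.00132), which was 0.942 without the 2 farthest arrays and 0.966 over the 10 arrays.

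Other pairs joined genes of the same or of different roles. Fabp1 went with Apoa4 (r = 0.925, rho 0.846, permutation p = 4e-05, adjusted p = 0.00211), with an r of 0.889 without the 2 farthest arrays and 0.781 over the 10 arrays with low Fabp6. Surf4 went with Apoc2 (r = 0.908, rho 0.895, permutation p = 4e-05, adjusted p = 0.00211), with 0.845 without 2 arrays and 0.812 over the 10. Mttp went with its partner P4hb (r = 0.883, rho 0.771, permutation p = 0.00012, adjusted p = 0.00317), with 0.788 without 2 arrays and 0.870 over the 10. Dgat2 had the most partners, 15 of the other 32 genes, followed by Apoc2 and Surf4 with 12 each. Some relations rested on few arrays. Cd36 and Apob had an r of 0.844 (rho 0.688, permutation p = 0.0016, adjusted p = 0.0163) and one of 0.408 without the 2 farthest arrays, WT replicate 1 and K289R replicate 5, though 0.772 over the 10 arrays with low Fabp6. Fabp2, Apoa1, Plin2, Lpin2, Dbi, Tm6sf2 and Mgll had 0 partners past the threshold. The relation of Fabp1 to its relative Fabp2 was −0.250 (rho −0.218, permutation p = 0.418, adjusted p = 0.717).

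**Figure D4:**
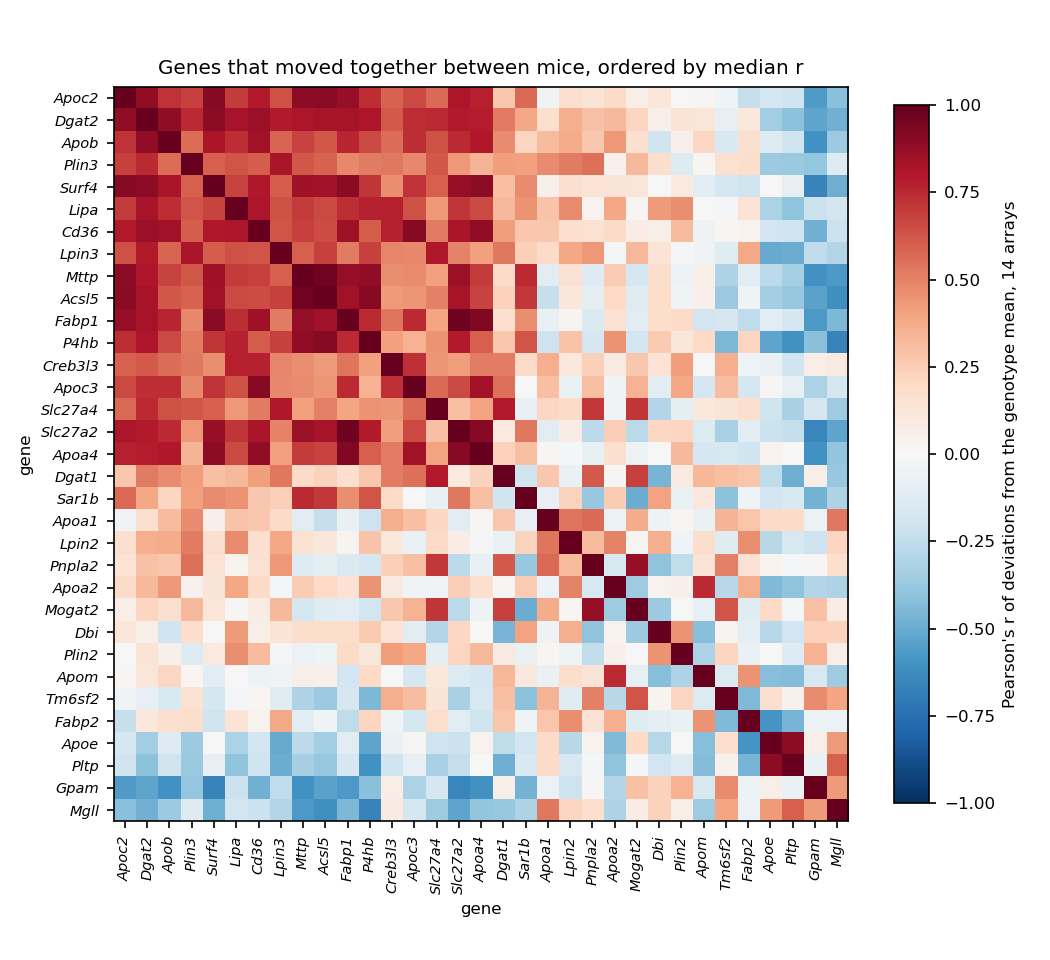
Pearson's r between the 33 genes (both axes), computed on deviations of log2 intensity from the genotype mean over 14 arrays and ordered by each gene's median r. The block at the upper left holds genes from Apoc2 to Apoa4 with mostly positive r, and Apoe and Pltp form a pair outside it.

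Neighbours on a chromosome differed in how closely they moved together. In the gene table of GRCm38.p6, Apoa1, Apoc3 and Apoa4 follow each other on chromosome 9 with 0 coding genes between neighbours. Apoc3 and Apoa4 had an r of 0.838 (rho 0.719, permutation p = 0.00386, adjusted p = 0.0304), which was 0.607 without the 2 farthest arrays and 0.330 over the 10 arrays with low Fabp6. Apoa1 and Apoc3 had one of 0.299 (rho 0.046, permutation p = 0.299, adjusted p = 0.580). Dgat2 and Mogat2 are neighbours on chromosome 7 and had an r of 0.214 (rho 0.222, permutation p = 0.460, adjusted p = 0.760). Apoc2 and Apoe, also on chromosome 7 with 2 coding genes between them, had one of −0.177 (rho −0.160, permutation p = 0.560, adjusted p = 0.806). Gpam and Acsl5, on chromosome 19 with 2 coding genes between them, had one of −0.536 (rho −0.516, permutation p = 0.060, adjusted p = 0.222).

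Pltp and Apoe, which macrophages and stromal cells also express, followed other genes. Over 14 arrays, 198 relations of a member to the mean of a cell list were tested on deviations from genotype means. With Benjamini-Hochberg over these, Pltp passed with the fibroblast, macrophage and endothelial means (adjusted permutation p = 0.00594, 0.0099 and 0.0205). Apoe passed with none of the 3 (adjusted permutation p = 0.0589, 0.0638 and 0.0713). With the enterocyte, proximal small intestine and smooth muscle means, 0 of the 33 members passed. With the endothelial mean r was 0.887 for Pltp and 0.835 for Apoe. On 5 arrays, K289R replicate 1 and WT replicates 1, 3, 4 and 7, Pltp was at 8.26 to 8.39, and on the other 9 at 8.60 to 8.86. The mean of 8 fibroblast genes split the same arrays, at 9.48 to 9.61 and 9.85 to 10.09. As the arrays form 2 clusters, which alone can give a high r over all 14, 5 further relations are given within the 9. The 9 hold 3 WT and 6 K289R arrays, and the other 5 arrays are too few. The adjusted p over these 5 relations does not cover the 198 tested on the same mice. These 5 relations were at first computed on levels, without regard to genotype. Within the 9, Pltp had an r of 0.768 with the fibroblast mean (rho 0.767, exact permutation p = 0.0217) and of 0.809 with the mean of 10 macrophage genes (rho 0.767, exact permutation p = 0.0122), each with an adjusted p of 0.0272 over 5 relations. Without the 2 arrays farthest from the median these were 0.628 and 0.756. Apoe had an r of 0.829 with the macrophage mean (rho 0.800, exact permutation p = 0.0078, adjusted p = 0.0272), 0.752 without 2 arrays, and of 0.486 with the fibroblast mean (rho 0.350, exact permutation p = 0.183). The 2 genes had an r of 0.762 with each other (rho 0.683, exact permutation p = 0.0206, adjusted p = 0.0272), 0.649 without 2 arrays. On deviations from the genotype means of the 9 arrays, with the 4320 permutations within genotypes, an alternative added later, r was 0.859 for Pltp and 0.896 for Apoe with the fibroblast mean, 0.870 and 0.807 with the macrophage mean and 0.869 between the 2 genes. The adjusted exact permutation p of these 5 relations ran from 0.0145 to 0.0345, so Apoe with the fibroblast mean passed in this form and not on levels.

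**Figure D5:**
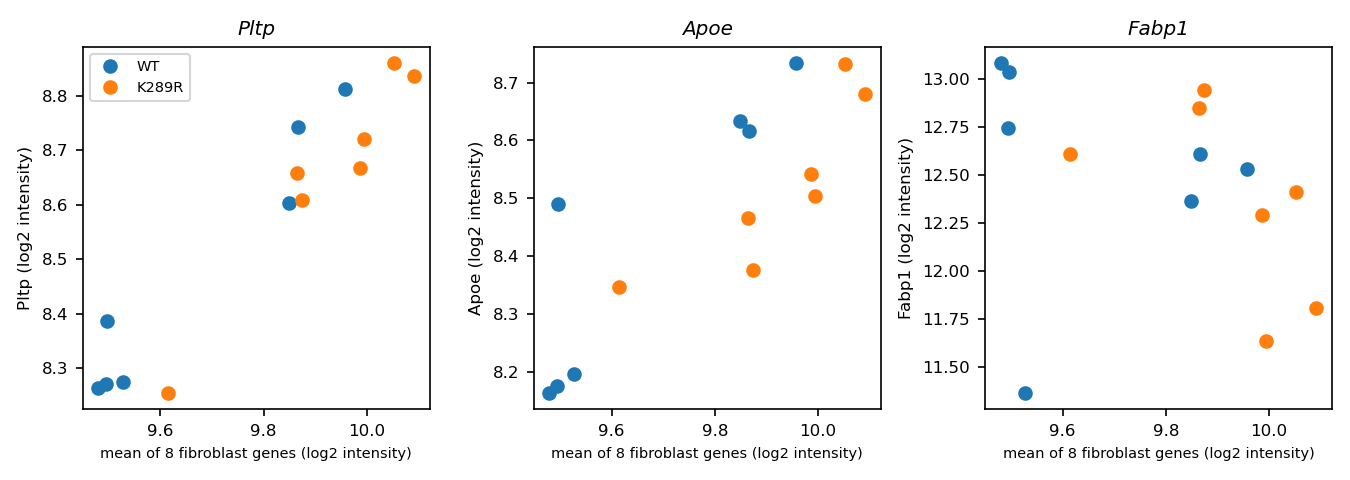
Log2 intensity (y axes) of Pltp, Apoe and Fabp1 against the mean log2 intensity of 8 fibroblast genes (x axis), 1 point per array, coloured by genotype. For Pltp the 5 arrays with a low fibroblast mean lie between 8.26 and 8.39 and the other 9 between 8.60 and 8.86, and Fabp1 shows no such split.

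Levels of markers of other cells are given beside these values, and no test of a list was run. Of the 8 fibroblast genes 8 had a higher mean in K289R (median difference 0.28), with summed intensities of 7991 to 10939 in WT and 8721 to 12522 in K289R, and the smooth muscle genes in 10 of 12, with a median of 0.23 and sums of 19548 to 21973 and 19716 to 26701. The macrophage genes were higher in 8 of 10 (median 0.085, sums of 4131 to 6124 and 4035 to 6390), and the endothelial genes in 7 of 7 (median 0.14). Within these 4 lists 0 genes passed the threshold (limma). An unadjusted p under 0.05 was reached by 5 fibroblast, 8 smooth muscle, 1 macrophage and 0 endothelial genes, each higher in K289R, where 4.43% of all genes were higher at that p. The 13 tested enterocyte genes had a median of −0.011, with 5 higher and 8 lower and summed intensities of 102577 to 109607 in WT and 102480 to 112667 in K289R. The part of cell makeup in the differences of Pltp, Apoe and Mgll was not tested. In a fit with the mean of the smooth muscle genes as covariate they were 0.04 (SE 0.131), −0.029 (SE 0.123) and 0.00011 (SE 0.079). That mean itself differed by 0.19 between genotypes, so the fit cannot tell it apart from genotype. Some other genes had a lower p in that fit. Mogat2 went from an unadjusted p of 0.0614 to 0.028 and Sar1b from 0.183 to 0.033 (limma). The lowest adjusted p of the 33 genes in that fit was 0.340. In such tissue RNA, fewer cells of a type and less RNA per cell cannot be told apart.

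The remaining lists served to check the tissue. Median differences were 0.13 over 7 adipocyte genes (5 higher), 0.014 over 8 hepatocyte genes (4 higher), −0.0025 over 5 pancreatic acinar genes (2 higher), 0.21 over 7 T and B cell genes (6 higher), −0.037 over 6 genes of the distal and −0.027 over 8 of the proximal small intestine (3 higher each). In all of them 0 genes passed. An unadjusted p under 0.05 was found for 8.48% of all genes tested and for 3 genes of these lists. These were Fgf15, the ileal hormone of bile acid feedback, at 1.64 (SE 0.405, limma adjusted p = 0.227), the acinar gene Sycn at 0.48 (SE 0.112, limma adjusted p = 0.156) and the iron transporter gene Slc11a2 at −0.16 (SE 0.069, limma adjusted p = 0.544). The title of the series speaks of hepatic LRH-1, but each sample is labelled jejunum. The albumin gene Alb was at 6.95 ± 0.11 (SD, n = 7) in WT, not far above the limit of 6.25 for dim genes, Cyp7a1 was below that limit at 5.46 ± 0.12 (SD, n = 7), and the enterocyte gene Sis was at 13.56 ± 0.05 (SD, n = 7). Other genes of the hepatocyte list were well above the limit, with Cps1 at 12.62 ± 0.04 (SD, n = 7), Ttr at 8.59 ± 0.14 (SD, n = 7) and Cyp2e1 at 8.52 ± 0.28 (SD, n = 7) in WT. Which cells these transcripts came from was not tested. The adipocyte genes summed to 4338 to 7306 in WT and 4239 to 10519.8 in K289R, and their mean log2 level was highest, at 9.75, on K289R replicate 5, the array on which 11 of the fat absorption genes were highest. The enterocyte mean, 12.96, and the smooth muscle mean, 10.63, were also highest of the 14 arrays there. The part of cell makeup in those values was not tested.

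Of the pathways around these genes 7 further lists were read. Of 104 tested genes in them 0 passed the threshold (limma), and 8 had an unadjusted p under 0.05, a share near the 8.48% of all genes. Of 13 tested genes of glycerolipid synthesis 2 were higher and 11 lower in K289R, with a median of −0.053. Gpd1, which makes glycerol 3-phosphate, differed by −0.17 (SE 0.060, limma adjusted p = 0.436) and Lpin1 by 0.11 (SE 0.050). Of 13 other uptake and activation genes 9 were higher and 4 lower, among them Cav1, the caveolin of endothelium and stroma, with 0.27 (SE 0.091), and Fabp3 with −0.085 (SE 0.041). Of 22 COPII and secretion genes 12 were higher and 10 lower, with Lman1, a cargo receptor, at 0.15 (SE 0.059) and the chaperone gene Hspa5 at −0.14 (SE 0.072). Of 16 genes of plasma apolipoproteins, receptors and lipases 8 were higher and 8 lower, with Apod at 0.20 (SE 0.061) and Apoh at −0.19 (SE 0.058). Of 14 other droplet and lipolysis genes 5 were higher and 9 lower, with Pnpla8 at 0.15 (SE 0.077) and Hilpda at −0.090 (SE 0.049). Of 6 luminal hydrolases 2 were higher and 4 lower, with Pnliprp1 at −0.089 (SE 0.046) and Cel at −0.054 (SE 0.082). Of 20 regulators 6 were higher and 14 lower, with the retinoid X receptor gene Rxra at −0.16 (SE 0.068) and the corepressor gene Nr0b2 at 0.25 (SE 0.119).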

How the data were processed

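The deposited table holds linear intensities of 41345 probe sets for each of 14 arrays, with array medians of 168 to 174. That the arrays were already on 1 scale was inferred from these close medians. Affymetrix Expression Console was used, per the submitters' processing notes; the sources used here do not give its version, summarisation or normalization. Scaling of arrays to each other removes any global shift in RNA amount. Values were log2-transformed without a pseudocount. Per the labels' protocols, 100 ng of total RNA was amplified and 5500 ng of cDNA labelled. Gene names came from the platform's annotation and were updated by Entrez identifier: 23521 had 1 symbol, 1814 several (left out), and 16010 were unnamed here. Of 22180 genes, the 18010 with a mean at or above the 25th percentile of probe sets entered a limma fit (version 3.58.1, R 4.3.3, lmFit, eBayes, no covariate, 2-sided, Benjamini-Hochberg over all genes, threshold 0.05; checked on simulated data). The number of arrays limits the precision (median SE 0.067). Per the labels the arrays are biological replicates; cage-mates, litters and batches are not identified.

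Members, lists and motifs were chosen with earlier results of these data known. Every member is named; other genes named are those with the smallest p in their pathway list, up to 2 per list, markers used to check the tissue or named after their values were seen (Fgf15, Sycn, Slc11a2, Cps1, Ttr, Cyp2e1), and Nr5a2. Alternatives tried were a replicate block, array weights, limma's trend with robust options, 2 list means as covariates, log2(intensity + 16), averaging the probe sets of a gene, other limits for dim genes, quantile or median scaling of the arrays, and leaving out each array, with the fit without the 4 Fabp6 arrays added after the data were seen.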

Additional observations from a re-analysis of the deposited data

Results flagged for a closer look

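In 11 of 66 groups (33 genes in 2 genotypes, 7 arrays each) the highest or lowest array stood apart by Dixon's ratio, the gap to the nearest array over the whole range. Chance gives about 1 in 20, or 3.3 groups, and the genes are not independent. The share over all genes tested was not computed, so the count cannot be read as a trait of these genes. WT replicate 1 was the low array in 5 of them. It gave ratios of 0.582 for Fabp1 (11.36, the next at 12.36), 0.627 for Cd36 (9.58 against 10.33), 0.576 for Slc27a2 (9.62 against 10.35), 0.715 for Apoa4 (13.62 against 13.93) and 0.608 for Apoc3 (9.77 against 10.04). The same array had the highest Fabp6 level, 12.52. WT replicate 2 was low for Apoa2 (ratio 0.647, 7.76 against 8.08) and Apom (ratio 0.613, 6.71 against 6.94). In K289R, replicate 3 was low for Mogat2 (ratio 0.696, 11.62 against 11.80), replicate 7 low for Dbi (ratio 0.636, 9.04 against 9.22), replicate 1 low for Pltp (ratio 0.585, 8.26 against 8.61), and replicate 5 high for Apoa1 (ratio 0.609, 13.45 against 13.36).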

How the results depend on the processing

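Across 26 other settings, 0 of the members passed the threshold (lowest limma adjusted p = 0.297, Plin3 without K289R replicate 5). Members with an unadjusted p under 0.05 of 33 numbered 1 with trend and robust options (Mogat2; 8.47% of all genes), 1 with the replicate block (Pltp; 8.13%), 2 with the smooth muscle covariate (Mogat2 and Sar1b; 12.4%) and 0 to 3 when 1 array was left out, with 3 (Plin3, Lpin3 and Mogat2) without K289R replicate 5 (11.5% of all genes), 2 without WT replicate 6 (8.53%) and 1 without WT replicate 2 (10.1%) or K289R replicate 1 (9.80%). These counts are near or below the share over all genes. The median of the members' differences ran from −0.028 to 0.011 over the fits without 1 array, and 14 members changed sign in at least 1 setting. Over all genes, 14 passed with array weights, 5 without the 4 Fabp6 arrays, 0 with the replicate block (1465 at an unadjusted p under 0.05), and from 4 (without K289R replicate 4, or without WT replicate 3 or 4) to 14 (without K289R replicate 5) when 1 array was left out; 5 passed without K289R replicate 7. Replicate numbers did not pair the arrays: same-numbered arrays correlated between −0.151 and 0.169 and 0 of 7 WT arrays correlated best with their own number. The cause of these shifts was not tested. Signal over background is not given, so dim genes such as Apom are the least certain.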
